A study of Mus musculus with 8 samples.

Results

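Binding of the glucocorticoid receptor (GR) was examined at 7 genes of the hepatic methionine cycle and transsulfuration pathway, Mat1a, Gnmt, Pemt, Ahcy, Bhmt, Cbs and Cth, in livers of C57BL/6J mice. Overlapping rows of the 6 GR peak lists were merged into sites, and a site belonged to a gene when its centre lay within 50 kb of the annotated gene start (mm10, GENCODE M21). By this rule 87 of the 51431 sites of the series belonged to the 7 genes, which are 7 of 21951 protein-coding genes of the annotation. The rule used no measured value, but it and the genes were chosen with earlier results of these data known.

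Methionine is activated to S-adenosylmethionine, the methyl donor of the cell, by the product of Mat1a, the methionine adenosyltransferase of adult liver. Gnmt and Pemt encode methyltransferases that consume this donor, the first to methylate glycine and the second to make phosphatidylcholine, and Ahcy encodes the enzyme that splits the S-adenosylhomocysteine they leave behind. The homocysteine so released is either methylated back to methionine with betaine by the product of Bhmt or carried by Cbs and Cth, the transsulfuration enzymes, to cysteine. The liver is the main site of this chemistry, and GR is a hormone-activated transcription factor known for its control of amino acid metabolism there.

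GR ChIP-seq comprised 3 groups of 2 libraries, all from male mice on regular chow, with livers taken at the start of the dark phase. The ctrl. mice ate only at night, the cal. res. mice were calorically restricted, and the CORT mice ate only at night and received corticosterone. The labels do not say whether the ctrl. mice were given vehicle. FOXO1, a forkhead transcription factor, had been mapped in cal. res. livers only, and its list was called on 2 merged libraries and carries no replicate spread. The hormone-treated mice were included to ask whether a higher supply of the GR ligand by itself accounts for the response to caloric restriction. Whole liver was used, so fewer cells with a bound site and less binding per cell cannot be told apart, and the lists hold no expression values with which the tissue label could be checked. The GR lists held between 13667 and 48060 rows, with the shortest and the longest in ctrl. replicate 2 and CORT replicate 2, and the longer ctrl. list had 41400. Read depth was not analysed here. In the labels, ctrl. replicate 2 and both cal. res. libraries carried names of one style, and ctrl. replicate 1 and both CORT libraries carried names of another. Whether the style marks a batch is not stated, and in a comparison of cal. res. with CORT it cannot be told apart from the group.

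The value compared was the within-list percentile of fold enrichment, the share of a library's regions at or below the region in question, because the fold itself is scaled within each list. The percentile depends on the length of the list, and the same rank gives a higher percentile in a longer one. A site counted as held by a group if neither of its libraries lacked a peak at it. The lead site of a gene was the one with the highest mean percentile over the 6 lists. Each lead site is given here by the 200 bp around its summit (GRCm38, plus strand), since these are the places of strongest GR signal at each gene. The summit of a site is that of the library with the highest percentile there. Where the summits of the libraries lie apart, the window shows only that summit. Capitals mark exact matches to 7 motifs. These were the GR hexamer AGAACA, the full glucocorticoid response element (GRE) of AGNACA and TGTNCT placed 3 bases apart, the FOX motif TGTTTAC or TATTTAC, the C/EBP motif TTGCNNAA, the HNF4 motif CAAAGTCCA or CAAAGGTCA, the STAT motif TTCNNNGAA and the E-box CACGTG, each on both strands.
Mat1a, chr14:41104866-41105065: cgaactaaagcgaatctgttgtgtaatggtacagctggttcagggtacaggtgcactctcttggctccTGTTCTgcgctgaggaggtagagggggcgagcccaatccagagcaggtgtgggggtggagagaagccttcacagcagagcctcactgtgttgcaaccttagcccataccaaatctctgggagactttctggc
Gnmt, chr17:46735435-46735634: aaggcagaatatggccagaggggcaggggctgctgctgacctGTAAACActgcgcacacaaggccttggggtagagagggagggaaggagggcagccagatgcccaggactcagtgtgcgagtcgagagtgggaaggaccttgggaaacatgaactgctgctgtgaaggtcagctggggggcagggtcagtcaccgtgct
Pemt, chr11:60036923-60037122: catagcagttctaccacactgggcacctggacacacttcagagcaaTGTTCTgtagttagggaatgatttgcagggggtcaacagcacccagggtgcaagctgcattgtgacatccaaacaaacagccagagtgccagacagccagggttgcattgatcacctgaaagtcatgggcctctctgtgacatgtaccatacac
Ahcy, chr2:155052786-155052985: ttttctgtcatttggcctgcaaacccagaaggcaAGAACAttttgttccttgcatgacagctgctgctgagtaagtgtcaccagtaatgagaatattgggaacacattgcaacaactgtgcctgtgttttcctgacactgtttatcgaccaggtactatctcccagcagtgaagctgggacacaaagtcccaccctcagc
Bhmt, chr13:93639825-93640024: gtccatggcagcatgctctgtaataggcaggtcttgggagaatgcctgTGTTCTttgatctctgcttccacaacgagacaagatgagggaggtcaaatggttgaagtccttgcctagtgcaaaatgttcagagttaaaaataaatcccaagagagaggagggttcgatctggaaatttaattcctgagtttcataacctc
Cbs, chr17:31636609-31636808: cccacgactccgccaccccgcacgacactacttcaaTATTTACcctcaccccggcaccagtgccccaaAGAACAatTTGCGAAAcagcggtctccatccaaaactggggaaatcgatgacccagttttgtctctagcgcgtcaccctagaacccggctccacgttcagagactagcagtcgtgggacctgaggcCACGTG
Cth, chr3:157924963-157925162: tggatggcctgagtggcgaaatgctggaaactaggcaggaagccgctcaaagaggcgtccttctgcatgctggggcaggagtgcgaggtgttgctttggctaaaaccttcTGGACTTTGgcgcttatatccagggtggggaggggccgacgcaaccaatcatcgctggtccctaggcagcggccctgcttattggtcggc

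Of these windows, 5 of 7 held a GR hexamer, at Mat1a, Pemt, Ahcy, Bhmt and Cbs, against 18.4% of all 51428 sites on chromosomes 1 to 19, X and Y. The FOX motif stood at 2 of 7, Gnmt and Cbs, against 8.72% of all sites. In the 100 bp around the summits, the hexamer stood at 2 of 7 lead sites (10.3% of all sites) and the FOX motif at 0 (4.75%). The Cbs window held 4 of the motifs, including a hexamer 2 bases from a C/EBP motif, and the Cth window held the HNF4 motif alone. No lead window held the exact GRE, which was found in 0.41% of all windows. With at most 1 of the 10 set letters of the GRE different, a search added after the data had been seen, the Ahcy window was the only lead window with a match. It read AGAACATTTTGTTCC at chr2:155052820-155052834 on the plus strand, with the substitution T15C counted from the first base of the 15-base element, 59 bp from the summit. Such near matches were present in 3.22% of all windows and in 2 of the 87 member windows. These are matches of letters and not measured binding sites.

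All 7 genes had GR sites held by each group. Sites with a peak in any library numbered between 8 at Gnmt and 16 at Ahcy, with 10 at Mat1a, 14 at Cth and 13 each at Bhmt, Cbs and Pemt. Fewer were held by ctrl., cal. res. and CORT, with 2, 2 and 1 at Cth and 8, 9 and 10 at Ahcy. The median over the 7 genes was 13 sites in any library, against 3 over 21938 protein-coding genes on the same chromosomes, of which 73.2% had at least 1. Of the 87 sites, 33 were held by ctrl. (37.9%, against 21.4% of all sites), 35 by cal. res. (40.2% against 27.9%) and 49 by CORT (56.3% against 43.7%). A peak in all 6 libraries was present at 28 sites (32.2% against 15.7%). A peak in a single library was the case at 26 (29.9% against 37.4%), of which 16 came from CORT replicate 2 and 7 from ctrl. replicate 1, the longest lists. The share of sites at these genes was therefore above the background for each group and no test over the members was run, since sites of 1 gene share their locus.

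**Figure D1:**
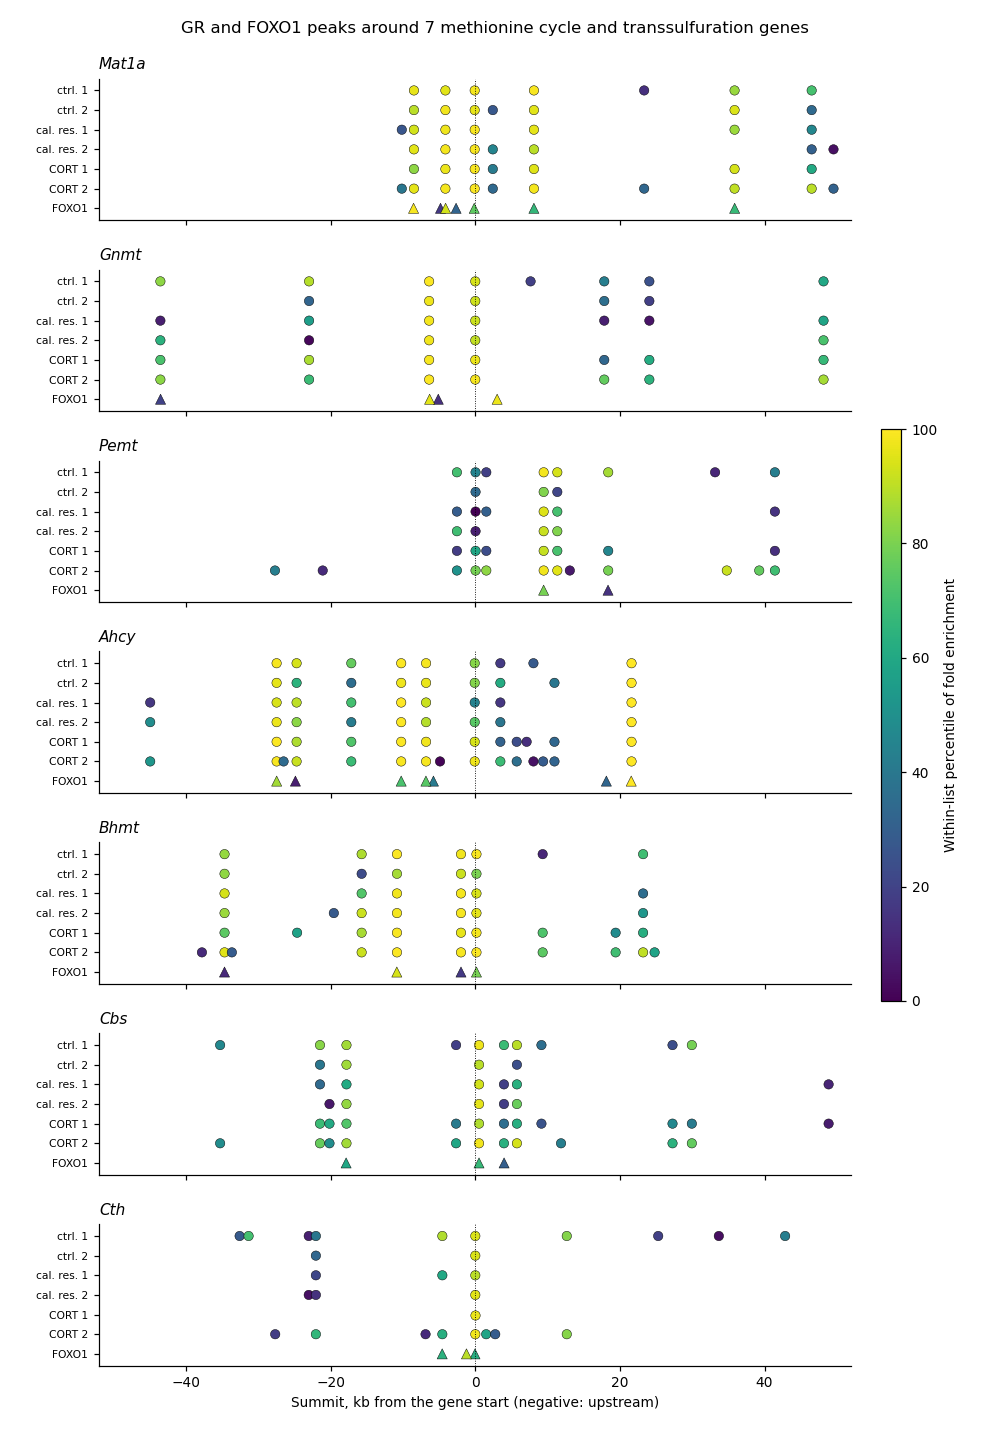
GR and FOXO1 peaks around the 7 genes. Each row is 1 GR library or the merged FOXO1 list, the x axis gives the summit in kb from the gene start with upstream negative, circles are GR sites and triangles FOXO1 regions, and the colour is the within-list percentile of fold enrichment. The circles of a site stand at the same place in every row, the summit of the library with the highest percentile. They do not show where the summits of the other libraries lay. Columns of circles through all 6 libraries mark the 28 sites found in every list, and most of them stand above a triangle.

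Cth and Mat1a lay at opposite ends in the number of sites with a peak in a single library. At Mat1a every library had at least 7 of the 10 sites, and 5 were in all 6. At Cth 9 of 14 sites came from a single library, 5 from ctrl. replicate 1 and 4 from CORT replicate 2, while CORT replicate 1 had only the site at the gene start. Ahcy had the largest number of sites in all 6 lists, 8 of 16, and Bhmt had 5 of 13. Gnmt, Cbs and Pemt had 3 each.

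**Figure D2:**
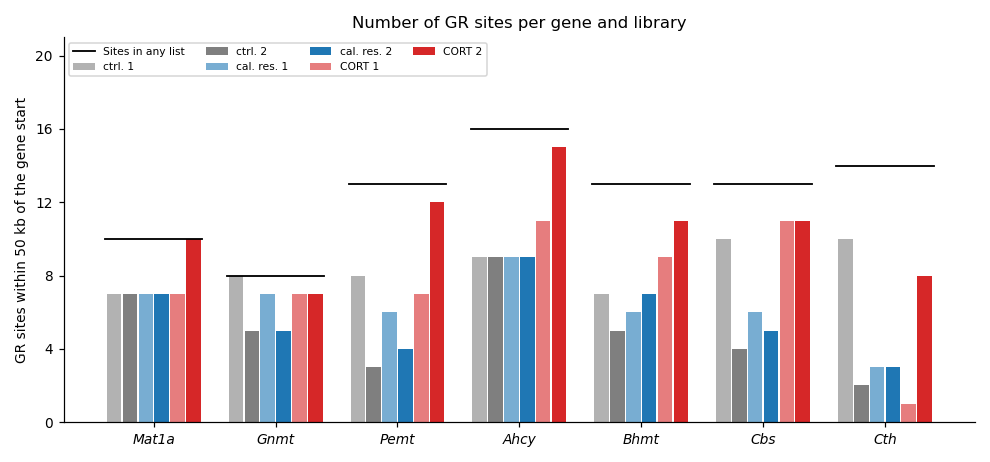
Number of GR sites within 50 kb of each gene start. Bars give the sites with a peak in each library and the black line the sites found in any list. The bars of ctrl. replicate 2 are the lowest or joint lowest at 6 of 7 genes, and the Cth bars run from 1 in CORT replicate 1 to 10 in ctrl. replicate 1.

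At Mat1a (ENSMUSG00000037798.7, plus strand of chromosome 14), 4 of the 5 sites found in all lists overlapped FOXO1. The lead site spanned the gene start (chr14:41103727-41107107), with its summit 69 bp upstream. Its percentiles were 98.2 and 96.1 for ctrl., 99.0 and 99.0 for cal. res. and 99.0 and 99.5 for CORT. Both cal. res. and both CORT libraries lay above both ctrl. libraries, by 1.82 and 2.09 points on average (exact permutation p = 0.333 for each, the smallest that 2 libraries against 2 allow). Without ctrl. replicate 2 these differences were 0.813 and 1.08 points. A site 8.47 kb upstream (chr14:41096087-41097216) had percentiles of 96.4 and 89.7 for ctrl., 93.2 and 95.6 for cal. res. and 83.0 and 96.1 for CORT. The groups overlapped there. It carried the strongest FOXO1 region of the gene, with a fold enrichment of 21.7 and rank 101 of 8068 in the FOXO1 list. The next site, 4.12 kb upstream (chr14:41099964-41102849), held 3 separate FOXO1 regions and had percentiles of 95.3 and 98.0 for ctrl., 97.5 and 98.2 for cal. res. and 96.9 and 98.4 for CORT, again without separation of the groups, although the best summits of the libraries were spread over 1585 bp.

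Inside Mat1a, 1 merged site of 17748 bp (chr14:41109475-41127222) covered most of the transcribed length. It joined 31 regions of the 6 lists, the longest of 11340 bp, with its summit in an intron 8.12 kb from the start. Its percentiles were 99.0 and 95.5 for ctrl., 95.9 and 89.6 for cal. res. and 95.3 and 98.3 for CORT, and the group ranges overlapped. The 6 best summits in it lay within 37 bp of each other, so the libraries shared the strongest peak. They differed in the number and extent of called regions along the gene. Separate regions within Mat1a numbered 11 and 6 for ctrl., 4 and 7 for cal. res. and 8 and 5 for CORT. A site 35.9 kb downstream, nearest to Sftpa1, had peaks in every library except cal. res. replicate 2, and also overlapped FOXO1. The remaining site in all 6 lists lay in an exon of Mbl1, near the edge of the window, with percentiles from 30.5 to 89.5 and no FOXO1 region.

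The methyltransferase genes Gnmt and Pemt had their lead sites away from the gene start. Gnmt (ENSMUSG00000002769.9, minus strand of chromosome 17) had its lead site 6.37 kb upstream in intergenic sequence (chr17:46733175-46736755), with percentiles of 99.6 and 97.3 for ctrl., 98.1 and 98.0 for cal. res. and 98.7 and 99.6 for CORT. The groups did not separate from ctrl. there. The 6 summits lay within 35 bp. FOXO1 had a region of fold enrichment 14.9 at the same place, 6.3 kb upstream, and a weaker one within the same site. The site at the Gnmt start (chr17:46722093-46729914) extended over the whole gene and had percentiles of 93.4 and 92.5 for ctrl., 92.2 and 90.9 for cal. res. and 97.0 and 98.6 for CORT. Here both cal. res. libraries lay below both ctrl. libraries, which lay below both CORT libraries. The best summits of the 6 libraries were spread over 2947 bp within this long site, so these percentiles do not all refer to 1 peak. FOXO1 had its strongest Gnmt region within this site, 3.03 kb downstream of the start, with a fold enrichment of 16.8.

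Further from Gnmt, a site at an exon of Ppp2r5d and one nearest to Pex6 were held by ctrl. and by CORT and not by cal. res., where replicate 1 alone had a peak, at the 5.31 and 8.30 percentile. At the Cnpy3 site all libraries had a peak, with percentiles of 88.8 and 32.3 for ctrl., 55.8 and 1.86 for cal. res. and 87.5 and 68.0 for CORT. These 3 sites are nearer to other gene starts than to that of Gnmt.

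Pemt (ENSMUSG00000000301.16, minus strand of chromosome 11) had its lead site in an intron, 9.47 kb downstream of the start (chr11:60036135-60037444). Percentiles there were 98.1 and 80.9 for ctrl., 94.7 and 91.6 for cal. res. and 91.2 and 98.0 for CORT. The ctrl. replicates differed by more than any pair of group means. FOXO1 had a region of fold enrichment 8.48 at this site and one other at Pemt, 18.4 kb downstream. The neighbouring intronic site 11.3 kb downstream was in all 6 lists with percentiles of 93.6 and 20.8 for ctrl., 70.5 and 81.1 for cal. res. and 70.7 and 95.6 for CORT and had no FOXO1 region. The site at the Pemt start (chr11:60045587-60046786), in the first exon, was among the weakest of the lists in cal. res. Its percentiles were 44.7 and 34.1 for ctrl., 0.0881 and 8.24 for cal. res. and 59.3 and 79.1 for CORT. Means were 39.4 ± 7.46 in ctrl., 4.17 ± 5.77 in cal. res. and 69.2 ± 14.0 in CORT (SD, n = 2 each), and no library of one group reached the range of another.

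Ahcy (ENSMUSG00000027597.15, minus strand of chromosome 2) had the strongest lead site of the 7 genes. It lay past the 3′ end of the gene, with its summit 6.42 kb beyond the end and 21.6 kb from the start, and no other protein-coding gene start was nearer. Percentiles at this site (chr2:155050206-155059817) were 99.9 and 99.95 for ctrl., 99.8 and 99.8 for cal. res. and 99.9 and 99.9 for CORT. Among all regions of each list its rank was 28 and 7 for ctrl., 42 and 36 for cal. res. and 18 and 36 for CORT. The summits agreed within 20 bp. FOXO1 had its strongest region of all 7 genes there, with a fold enrichment of 35.3 and rank 13 of 8068. Both cal. res. libraries lay below both ctrl. libraries, but the difference was only -0.122 points. This is the window with the near match to the GRE shown above.

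Upstream of Ahcy stood 4 further sites found in all lists and overlapping FOXO1. The one 10.2 kb upstream (chr2:155084297-155085182) had percentiles of 99.5 and 97.6 for ctrl., 99.7 and 99.5 for cal. res. and 99.4 and 99.2 for CORT. It was the only one of the 28 sites in all lists at which both cal. res. libraries lay above both CORT libraries. At the site 6.79 kb upstream percentiles were 98.5 and 96.8 for ctrl., 92.1 and 89.0 for cal. res. and 97.8 and 98.7 for CORT, with both cal. res. libraries below the other 4. At the site 27.4 kb upstream they were 98.7 and 95.9 for ctrl., 94.1 and 97.0 for cal. res. and 99.4 and 99.1 for CORT, with both CORT libraries above both ctrl. libraries. At the site 24.7 kb upstream they were 93.5 and 64.1 for ctrl., 89.9 and 82.8 for cal. res. and 87.5 and 91.6 for CORT, and the groups overlapped.

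The Ahcy start itself was occupied without FOXO1. The site (chr2:155072536-155075131) had its summit 66 bp upstream of the start and percentiles of 81.8 and 81.6 for ctrl., 44.2 and 74.1 for cal. res. and 93.6 and 97.6 for CORT. The order was that seen at the Pemt start, with cal. res. lowest and CORT highest and no overlap between groups. Means were 81.7 ± 0.114, 59.1 ± 21.1 and 95.6 ± 2.83 in ctrl., cal. res. and CORT (SD, n = 2 each). A site 44.9 kb upstream of Ahcy, nearest to Itch, was the only member site held by cal. res. with no peak in either ctrl. library. Its percentiles were 15.8 and 48.8 in cal. res., and CORT replicate 2 had a peak there as well, at 52.5. In an intron 5.74 kb downstream, a site was held by CORT alone at 23.3 and 36.2, with no peak in the other 4 libraries.

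Bhmt (ENSMUSG00000074768.6, minus strand of chromosome 13), which returns homocysteine to methionine, had 5 sites in all 6 lists, of which 4 overlapped FOXO1. The lead site lay 1.96 kb upstream (chr13:93639481-93641015), with percentiles of 98.0 and 92.0 for ctrl., 98.2 and 98.6 for cal. res. and 96.1 and 98.8 for CORT, and both cal. res. libraries were above both ctrl. libraries by 3.41 points on average, which fell to 0.432 points without ctrl. replicate 2. The FOXO1 region there was among the weaker ones, at the 16.5 percentile of its list. The site 10.8 kb upstream (chr13:93648161-93649369) had percentiles of 99.5 and 86.7 for ctrl., 97.9 and 98.3 for cal. res. and 99.0 and 99.4 for CORT and a stronger FOXO1 region, at rank 535 of the list. At the gene start (chr13:93632034-93638619) percentiles were 98.8 and 80.0 for ctrl., 94.1 and 96.1 for cal. res. and 98.2 and 99.3 for CORT. At both of these sites ctrl. replicate 1 was close to the CORT libraries and ctrl. replicate 2 was the lowest of the 6, so the direction against ctrl. depended on the ctrl. library. The fourth FOXO1 site, 34.6 kb upstream in an intron of Bhmt2, had percentiles of 84.2 and 83.4 for ctrl., 93.6 and 84.8 for cal. res. and 74.9 and 95.7 for CORT. It stands close to the starts of Bhmt2, a paralogue that uses S-methylmethionine, and Dmgdh, which acts on the dimethylglycine that Bhmt produces.

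Within Bhmt, 2 sites were found mainly in CORT. The first (chr13:93617518-93620196), 19.4 kb downstream, was held by CORT alone at 47.7 and 69.4. The second was a merged site of 11200 bp in the middle of the gene, with percentiles of 72.0 and 74.7 in CORT, 10.8 in ctrl. replicate 1 and no peak in the other 3 libraries.

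The transsulfuration genes had their lead sites at the gene start. At Cbs (ENSMUSG00000024039.15, minus strand of chromosome 17) this site (chr17:31635110-31638757) had its summit in an intron 0.529 kb downstream, with percentiles of 97.4 and 89.6 for ctrl., 93.2 and 95.7 for cal. res. and 88.2 and 97.7 for CORT, and no group was separated from another. A site 17.8 kb upstream (chr17:31654354-31656012) lay in an exon of U2af1 and had percentiles of 86.1 and 85.7 for ctrl., 60.8 and 83.7 for cal. res. and 73.0 and 86.0 for CORT, with both cal. res. libraries below both ctrl. libraries. FOXO1 overlapped both, with fold enrichments of 6.9 at the start and 6.31 at U2af1, and also overlapped another site, 3.97 kb downstream, which had no peak in ctrl. replicate 2. A site in an intron of U2af1 (chr17:31657084-31657620) was held by CORT with no peak in ctrl., at 60.4 and 48.7, and cal. res. replicate 2 had a weak peak there, at 6.27.

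At Cth (ENSMUSG00000028179.12, minus strand of chromosome 3) a single site was found in all lists. It covered the gene start (chr3:157924492-157926570), with its summit in the first exon, and had percentiles of 94.1 and 94.0 for ctrl., 89.6 and 95.3 for cal. res. and 96.5 and 97.7 for CORT. Both CORT libraries were above both ctrl. libraries, by 3.07 points on average. FOXO1 had 2 regions within it, and the one 1.21 kb upstream was the stronger, with a fold enrichment of 11.1. The 6 best GR summits within this site were spread over 1174 bp, so the percentiles do not all refer to the same summit. A further site 4.54 kb upstream also overlapped FOXO1 and had a peak in ctrl. replicate 1, cal. res. replicate 1 and CORT replicate 2 only.

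The sites nearest the 7 gene starts were then set side by side. At Gnmt, Pemt and Ahcy the order was cal. res. below ctrl. below CORT with no overlap between libraries of different groups, and the lead sites of these 3 genes did not show it. The mean differences from ctrl. were -35.2 points in cal. res. and 29.9 in CORT at Pemt, -22.5 and 13.9 at Ahcy, and -1.41 and 4.86 at Gnmt. Each of the 3 sites had the smallest exact permutation p that 15 groupings of 6 libraries allow, 0.0667, and after Benjamini-Hochberg adjustment over the 8097 sites found in all lists p was 0.659. This design cannot reach 0.05. The cal. res. difference at Ahcy rested on the replicate used, with -7.59 points without cal. res. replicate 1 and -37.5 without replicate 2, and at Gnmt it ran from -2.04 to -0.782 points when 1 library was left out. When each list was cut to the same number of regions, the cal. res. and ctrl. libraries overlapped at Gnmt and Ahcy, and at Gnmt also at a q of at most 0.01, while both CORT libraries stayed above both ctrl. libraries at these genes. The Pemt start could not be checked with an equal number of regions, nor for cal. res. at that q, because a library then lacked a peak. The same smallest p was found at 10.1% of all 8097 sites, and 3 of 28 member sites is close to that share. Among sites of the series in all lists that were centred within 1 kb of an annotated transcript start, 12.4% of 3078 had this order, against 1.71% of the others, so that it was more frequent at gene starts in general. By that measure 2 of 11 member sites at transcript starts had it, with Gnmt counted among the others because its site is long. The Gnmt, Pemt and Ahcy start windows are shown for comparison with their lead windows above.
Gnmt, chr17:46729060-46729259: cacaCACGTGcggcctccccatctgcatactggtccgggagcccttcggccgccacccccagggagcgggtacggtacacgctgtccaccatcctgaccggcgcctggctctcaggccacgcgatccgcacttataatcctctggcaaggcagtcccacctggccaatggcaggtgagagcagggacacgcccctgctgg
Pemt, chr11:60046340-60046539: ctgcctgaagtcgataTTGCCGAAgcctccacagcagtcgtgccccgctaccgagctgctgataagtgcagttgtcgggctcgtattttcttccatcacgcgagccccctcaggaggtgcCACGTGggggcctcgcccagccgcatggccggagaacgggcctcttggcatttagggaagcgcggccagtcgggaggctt
Ahcy, chr2:155074463-155074662: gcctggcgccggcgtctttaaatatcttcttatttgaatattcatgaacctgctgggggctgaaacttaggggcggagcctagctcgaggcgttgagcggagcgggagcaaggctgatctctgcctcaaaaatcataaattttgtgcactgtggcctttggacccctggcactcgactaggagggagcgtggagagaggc

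None of these start windows held a GR hexamer, the GRE or the FOX motif. The Gnmt and Pemt windows held an E-box, a motif found in 4.73% of all windows, the Pemt window also held a C/EBP motif, and the Ahcy window held none of the 7 motifs. Among the Mat1a, Bhmt, Cbs and Cth start sites, the hexamer stood at Mat1a and Cbs and the HNF4 motif at Bhmt and Cth. The Cbs start window also held an E-box, a C/EBP motif and the FOX motif. Over all 7 start sites the E-box stood at 3, and at 1 in windows of 100 bp.

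**Figure D3:**
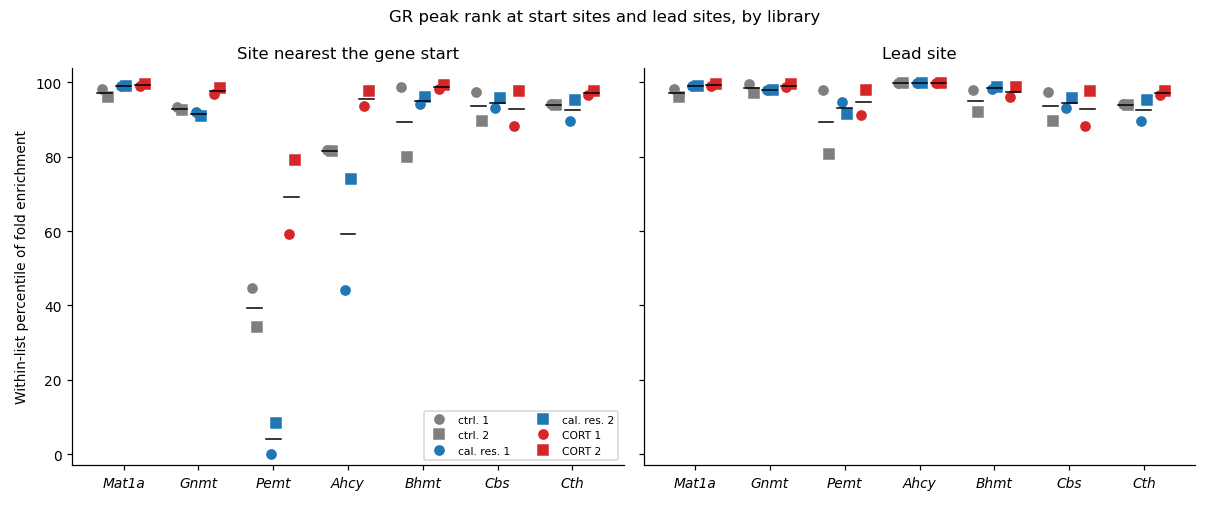
Within-list percentile of fold enrichment in each library at the site nearest the gene start (left) and at the lead site (right) of the 7 genes, with circles for replicate 1, squares for replicate 2 and black bars for group means of 2 libraries. At the Pemt and Ahcy starts the blue cal. res. points lie lowest and the red CORT points highest, whereas at the lead sites all points lie above 80.

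Over the 28 member sites found in all lists, the groups were compared by whether their libraries overlapped. Both CORT libraries lay above both ctrl. libraries at 6 sites (21.4%, against 26.6% of the 8097 sites of the series) and below at 0 (against 5.2%). Both cal. res. libraries lay above both ctrl. libraries at 3 (10.7% against 11.5%), at Mat1a and Bhmt, and below at 6 (21.4% against 20.6%), at Gnmt, Pemt, Cbs and Ahcy. Both cal. res. libraries lay below both CORT libraries at 12 (42.9% against 46%) and above at 1 (3.57% against 9%). These shares were near or below the background, and the comparison of cal. res. with CORT runs across the library name styles. They were not recounted with an equal number of regions per list, so differences in list length remain in them. The median difference from ctrl. was 0.42 points in cal. res. and 3.96 in CORT over the member sites, and 0.14 and 7.80 over all 8097 sites. Both contrasts share the ctrl. libraries.

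Sites gained against ctrl., held by the group and not by both ctrl. libraries, numbered 6 in cal. res. (6.9% of 87, against 11.5% of all sites) and 17 in CORT (19.5% against 24.3%). Of the 6, 5 had a peak in ctrl. replicate 1, and of the 17, 12 had one there and 2 in ctrl. replicate 2. Gains with no ctrl. peak at all were thus 1 in cal. res. and 3 in CORT, the 4 sites at Ahcy, Bhmt and Cbs described above. When gains were counted against the ctrl. library of the same name style, there were 6 in cal. res. and 5 in CORT. That library was ctrl. replicate 2 for cal. res., with 12458 regions, and ctrl. replicate 1 for CORT, with 36234. With ctrl. replicate 2 left out, CORT gains likewise numbered 5. Shares over all sites were not computed for gains with no ctrl. peak or for these style-matched gains.

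FOXO1 overlapped 24 of the 87 member sites (27.6%, against 13.9% of all sites) and 19 of the 28 found in all lists (67.9% against 50.7%). All 30 FOXO1 regions within 50 kb of the 7 starts overlapped a GR site, and over the whole list 7548 of 8068 regions (93.6%) did. The counts per gene were 5 sites at Mat1a and Ahcy, 4 at Bhmt, 3 at Gnmt and Cbs, and 2 at Cth and Pemt. Each of the 7 lead sites overlapped FOXO1, but a lead site is by definition the one of highest mean GR percentile. The share of lead sites overlapping FOXO1 over all protein-coding genes was not computed. Member sites in all lists that overlapped FOXO1 had a median of their mean GR percentiles of 95.5 (n = 19, range 79.2 to 99.9), and those that did not had 60.7 (n = 9, range 37.6 to 78.8), so the ranges did not meet. Over all sites in all lists the medians were 82.4 and 63.9, with ranges that overlapped. These are descriptions, since sites of 1 library are not replicates, and FOXO1 was not mapped in ctrl. or CORT livers. The FOXO1 regions at the members had a median percentile of 66.6 in their own list.

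In the windows of all 28 member sites found in every list, the hexamer was present in 8 (28.6%, against 20.02% of the 8095 such sites on the searched chromosomes) and the C/EBP motif in 11 (39.3% against 17.4%). The E-box was present in 5 (17.9% against 6.3%), and the HNF4 and FOX motifs in 3 each (10.7%, against 3.85% and 9.57%). The STAT motif was in 0 of 28, against 9.29%, and so was the exact GRE, against 1.17%. In windows of 100 bp the E-box was in 1 of 28 (3.57% against 3.15%), the FOX motif in 0 (against 4.95%), the HNF4 motif in 2 (7.14% against 2.16%), the hexamer in 5 (17.9% against 12.1%) and the C/EBP motif in 6 (21.4% against 10.3%), so the larger share of E-boxes was seen only with the wider window. With so few windows these shares are counts only, and no test was run on them.

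Called GR regions covered most of the length of Mat1a and Bhmt in CORT. This was measured as the share of the gene's length inside regions of each list, a measure added after the data had been seen. At Mat1a, of 19378 bp, the shares were 34.7 and 12.2 for ctrl., 8.58 and 23.0 for cal. res. and 89.4 and 93.2 for CORT percent. At Bhmt, of 21287 bp, they were 9.50 and 2.55 for ctrl., 2.80 and 5.41 for cal. res. and 62.9 and 94.9 for CORT percent. At both genes the CORT libraries were separated from the other 4 by a wide gap, and the longest region of CORT replicate 2 reached 11340 bp in Mat1a and 11200 bp in Bhmt. The cover was made up of 8 and 5 separate regions in Mat1a, and of 13 and 4 in Bhmt, in CORT replicates 1 and 2, and the longest region of replicate 1 had 6229 and 2773 bp. In CORT replicates 1 and 2 the covered length was 17333 and 18065 bp in Mat1a and 13400 and 20208 bp in Bhmt, with a mean fold enrichment of the regions of 13.2 and 22.9 in Mat1a and 8.11 and 21.5 in Bhmt. Among the other 4 libraries the covered length was at most 6724 bp in Mat1a and 2022 bp in Bhmt, both in ctrl. replicate 1.

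At Ahcy the shares were 17.7 and 15.9 for ctrl., 2.70 and 2.49 for cal. res. and 27.1 and 55.0 for CORT percent, so that cal. res. lay below ctrl. and CORT above it without overlap. Gnmt, a gene of 3505 bp, was covered at 100 and 61.4 for ctrl., 38.1 and 56.4 for cal. res. and 52.6 and 100 for CORT percent, with ctrl. and CORT overlapping. Cbs, Pemt and Cth were covered to at most 18.9 percent in any library. Both CORT libraries were above both ctrl. libraries at 4 of 7 genes, Mat1a, Bhmt, Cbs and Ahcy, against 10.5% of 21938 protein-coding genes, and both cal. res. libraries were below both ctrl. libraries at 3, Gnmt, Cth and Ahcy, against 8.46%. Many of these genes hold no called region and cannot show either order. Among the 4149 genes with some covered length in all 6 libraries, which include all 7 members, the shares were 21.2% and 17.3%. With 2 libraries against 2 the exact permutation p of each such difference is 0.333. At Cth the gap was narrow, with 6.10 and 0.759 for ctrl. and 0.633 and 0.727 for cal. res. percent. Without ctrl. replicate 1 the Cth difference of cal. res. from ctrl. was -0.0795 percentage points. Mean coverage over all protein-coding genes was 3.10 and 0.88 percent for ctrl., 1.10 and 1.03 for cal. res. and 2.39 and 3.68 for CORT.

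Among the 14164 protein-coding genes of at least 10 kb, 3 had more than 50 percent of their length covered in both CORT libraries and less than 50 percent in each of the other 4 (0.0212%). They were Mat1a, Bhmt and Fmo5, a flavin monooxygenase gene that was not chosen beforehand. The limits of 10 kb and 50 percent were set with the values of Mat1a and Bhmt known, so the count describes these libraries. Without the limit on length, 26 of 21938 genes met it (0.119%). With 12458 regions in every library, the size of the shortest list, the CORT shares were 75.0 and 85.5 percent at Mat1a, where the other 4 libraries reached at most 17.7, and 24.3 and 82.3 percent at Bhmt, where they reached at most 5.41. At Ahcy the CORT shares then fell to 2.16 and 16.3 percent and were no longer both above ctrl. The list of CORT replicate 2 also held 345 regions longer than 3 kb, against 91 in CORT replicate 1, 122 and 23 in ctrl. and 8 and 14 in cal. res., so long regions were most frequent in the 3 longest lists. The part of region length in these shares was not tested beyond the equal number of regions. FOXO1 regions covered 4.12 percent of Mat1a, 2.44 percent of Bhmt and 0 percent of Ahcy.

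**Figure D4:**
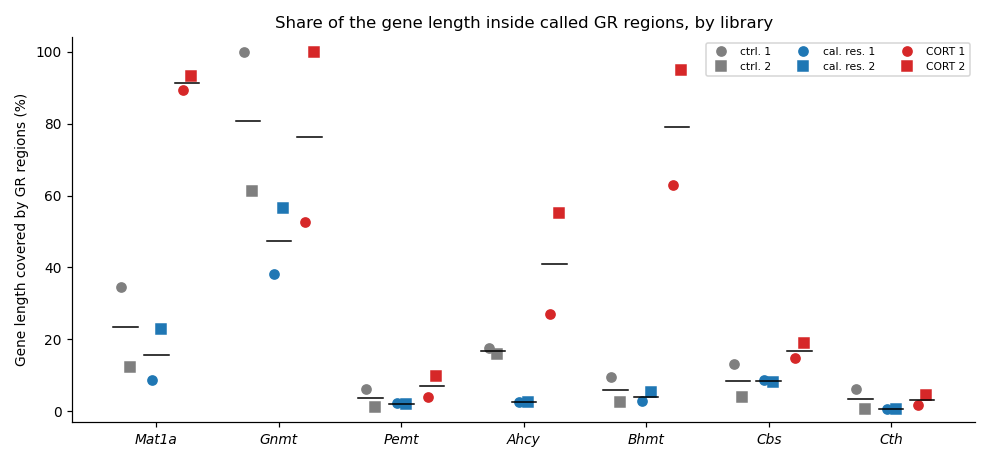
Share of each gene's length, in percent, inside called GR regions of each library, with circles for replicate 1, squares for replicate 2 and black bars for group means of 2 libraries. The red CORT points at Mat1a and Bhmt lie between 62.9 and 94.9 percent, and the other 4 libraries lie at 34.7 percent or below.

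The members were set beside 36 related genes of methionine, folate, choline, cysteine, glutathione and polyamine metabolism, all of which matched the annotation and had at least 1 site. The related genes had a median of 9 sites, with 2.5 held by ctrl., 2.5 by cal. res. and 4.5 by CORT, against 13, 5, 5 and 7 at the members. A site in all 6 lists was present at 30 of 36 and a site overlapping FOXO1 at 23 of 36. Bhmt2 and Dmgdh shared the lead site of Bhmt. Of the other 34, 17 had a lead site that overlapped FOXO1, and the median of the mean percentile at the lead site was 71.9, against 96.9 at the 7 members. Sms and Mtr had 1 site each. The highest lead sites were those of Nnmt, which methylates nicotinamide with S-adenosylmethionine, and Chdh, which starts the oxidation of choline to betaine, with mean percentiles of 98.2 and 97.8.

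By the root mean square difference of the 6 percentiles at the lead sites, Nnmt was the gene most like Mat1a (0.614 points) and most like Bhmt (2.05 points), Csad, which makes hypotaurine from cysteine sulfinate, was most like Cbs (2.53), Amd1, which decarboxylates S-adenosylmethionine for polyamine synthesis, was most like Cth (2.28), and Gclm, the modifier subunit of glutamate cysteine ligase, was most like Pemt (2.66). Gnmt was most like Mat1a (0.915) and Ahcy most like Gnmt (1.59). Each rank was over 6 libraries, and between 40 and 42 genes were compared. The measure depends on the height of the percentiles as well as on their order over the groups. A small difference between lead sites near the top of the lists therefore need not mean the same order.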

How the data were processed

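The data were GR ChIP-seq peak lists of 6 libraries, 2 for each of ctrl., cal. res. and CORT as given by the sample titles, and a FOXO1 list from 2 merged cal. res. libraries. Per the labels, the authors used mm10 and mapped reads with BWA, handled them with SAMtools, removed duplicates with Picard and called peaks with MACS2, the GR peaks in each library on its own. The use of an input control is not given in the sources used here. The fold enrichment deposited for each peak is the caller's ratio of signal to local background, scaled per library, and was therefore ranked within lists. Its p-value and q-value were deposited as −log10. The largest q-value was close to 0.1 in each GR list (0.0994 to 0.0998) and 9.84e-06 in the FOXO1 list, so the lists differ in stringency.

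Rows with the same start and end were reduced to the summit of highest fold. Regions sharing at least 1 bp were merged into sites, and each library was represented at a site by its best region. A merged site can hold several summits and can grow with long regions. No peak on chromosomes 1 to 19, X or Y ran past the end of its chromosome in GRCm38, whose chromosome 1 has 195471971 bp. Gene starts were those of the basic set of GENCODE M21. Percentiles were compared with two-sided exact permutation tests over libraries (15 groupings for 3 groups, 6 splits for 2 groups), adjusted over all sites found in the 6 lists where stated. Titles number the libraries as replicates but do not tie same-numbered libraries together. The number of replicates, 2 per group, limits every comparison.

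The text names, for each gene, the lead site, the site nearest the start, sites overlapping FOXO1 in all lists and gains with no ctrl. peak, and, among related genes, the most alike lead site. Other sites and genes were named after their values were seen. The members, the related genes and these rules were chosen with earlier results of these data known. Alternatives were another distance, the nearest gene start, stricter q-values, an equal number of regions, a site held by either library, the ctrl. library of the same name style, stricter FOXO1 overlaps, percentiles of −log10 p, the replicate block, a shorter motif window and leaving out each library. The start site alternatives, the near GRE and the gene body shares were added after the data had been seen. Merging, overlap and tests were tested on simulated data. The simulated regions were short and stood well apart, so the joining of neighbouring peaks by long regions was not tested. Tools were Python 3.11.15, NumPy 2.4.6, with pandas 2.3.3, SciPy 1.17.1, pysam 0.24.0 and matplotlib 3.10.9.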

Additional observations from a re-analysis of the deposited data

How the results depend on the processing

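Of 51 alternative site counts, apart from those leaving out a library, 40 were within 1.5 times the reported count. The exceptions were 132 sites and 26 CORT gains within 100 kb, 3 cal. res. gains both within 25 kb and for the nearest gene start, 21 ctrl. sites at q of at most 1e-05, 61 ctrl. and 78 CORT sites held by either library, and 5 CORT gains against the ctrl. library of the same name style. With an equal number of regions there were 53 sites, 1 cal. res. gain and 5 CORT gains. FOXO1 overlap ranged from 19 to 31 sites over these alternatives. Leaving out each library gave 33 to 59 ctrl. sites (59 without ctrl. replicate 2), 49 to 77 CORT sites (77 without either CORT library), 1 to 11 cal. res. gains and 5 to 43 CORT gains. The lowest gains, 1 and 5, came without ctrl. replicate 2. The 11 came without either cal. res. library, and CORT gains were 43 and 37 without CORT replicates 1 and 2.

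Of 85 alternatives for percentile differences at lead and start sites, 82 kept their direction. The 85 include the replicate block, which leaves each difference unchanged by construction, so those entries could not turn. With an equal number of regions the difference from ctrl. was -0.124 points for CORT at the Gnmt lead site, -0.433 for cal. res. at the Cbs lead site and -1.18 for CORT at the Pemt lead site, each opposite to the reported sign. Leaving out each library turned the sign at several lead sites. For cal. res. minus ctrl. the ranges were -1.52 to 0.78 at Gnmt, -2.93 to 4.85 at Cbs, -4.47 to 1.28 at Cth, -4.96 to 12.3 at Pemt and, for the start site, -3.75 to 15.1 at Bhmt. For CORT minus ctrl. they were -0.397 to 1.90 at Gnmt, -0.556 to 5.41 at Bhmt (start site -0.081 to 18.7), -5.32 to 4.203 at Cbs, -0.028 to 0.0037 at Ahcy and -3.49 to 13.7 at Pemt. With an equal number of regions, and for cal. res. at q of at most 0.01, no value could be had at the Pemt start, where a library then lacked a peak. The differences at the Gnmt, Pemt and Ahcy start sites kept their sign when any 1 library was left out, with cal. res. minus ctrl. from -37.5 to -7.59 at Ahcy, -2.04 to -0.782 at Gnmt and -40.5 to -29.9 at Pemt. At the lead sites it ran from 0.432 to 6.40 at Bhmt and 0.813 to 2.83 at Mat1a. With the replicate number as a replicate block the differences are the same (CORT minus ctrl. at the Pemt start site, 29.8 points), the smallest exact p is 0.5, and no call changed, since none passed a threshold.

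In covered gene length, cal. res. minus ctrl. at Bhmt was 1.43 percentage points both with an equal number of regions and at q of at most 0.01, and CORT minus ctrl. at Ahcy was -1.36 with an equal number, each opposite to the reported sign. Without each library in turn, cal. res. minus ctrl. ranged from -18.9 to 3.57 at Mat1a, -5.40 to 1.55 at Bhmt, -4.58 to 4.57 at Cbs and -4.04 to 0.993 at Pemt, and CORT minus ctrl. from -28.1 to 19.3 at Gnmt and -2.82 to 2.53 at Cth. At Mat1a and Bhmt CORT minus ctrl. stayed between 56.6 and 88.9, and at Ahcy it was 10.3 without CORT replicate 2 and 38.3 without CORT replicate 1. In 100 bp windows, GR hexamers stood at 2 of 7 lead sites, and the FOX motif and the E-box at 0. The cause of these changes was not tested. Peak number, and so every count, can move with read depth, which was not analysed here.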
